A study of Mus musculus with 4 samples.

Results

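The Bcl2 family decides at the mitochondrial outer membrane whether a cell survives or dies, and it was followed here in clones of the J558 plasmacytoma. The members were taken by gene symbol, as every probe set (a group of short array probes read out as 1 value) that the platform annotation gives to Bcl2, Bcl2l1, Mcl1, Bax, Bak1, Bcl2l11, Pmaip1, Bbc3, Bid or Bad alone. Probe sets with several symbols were not matched. The matching gave 29 probe sets of 45037 for 9 of the 10 genes. Bax was matched to no probe set and is not analysed here. J558 is a BALB/c mouse plasmacytoma line (H-2Ld), a tumour of antibody-secreting cells. Both control clones carried an empty silencing vector, and both AID-silenced clones carried that vector with a sequence targeting AID, the activation-induced cytidine deaminase that starts hypermutation and class switching at antibody genes. All 4 clones also carried a neomycin resistance gene and had been selected with G418, so each array stands for the RNA of a single drug-selected clone. Per the labels there are 2 numbered pairs of 1 control and 1 AID-silenced clone, and they do not say what the clones of a pair share.

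In this family, survival proteins such as BCL2, BCL-XL (Bcl2l1) and MCL1 hold the effectors BAX and BAK in check. Stress signals raise or release small BH3-only proteins, which occupy the groove of the survival proteins or act on the effectors directly, and freed effectors open the outer membrane so that cytochrome c escapes and caspases are switched on. MCL1 is the survival protein on which plasma cells are best known to depend, and its main BH3-only partners include BIM (Bcl2l11) and NOXA (Pmaip1).

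The promoters of 3 members are shown because the comparisons below turn on them: Mcl1 and Bcl2l11 had higher signals in AID-silenced clones at most of their probe sets, and Bcl2 differed between the pairs. Each run is the 250 bases before a RefSeq transcription start in assembly GRCm38.p6, 5′ to 3′ on the gene's strand. RefSeq promoters were matched for 9 of the 10 genes, with 15 starts in all. Pmaip1 had no matched promoter, so none is shown for it. Of the 2 starts of Bcl2l11, the first along the gene is printed, since it holds the forkhead match. Capitals mark matches on either strand to the forkhead core GTAAACA, the GC box GGGCGG, the CCAAT box CCAAT, the E-box CACGTG, the cAMP response element TGACGTCA and the TATA box TATAAA.
Mcl1, chr3:95658471-95658720, plus strand: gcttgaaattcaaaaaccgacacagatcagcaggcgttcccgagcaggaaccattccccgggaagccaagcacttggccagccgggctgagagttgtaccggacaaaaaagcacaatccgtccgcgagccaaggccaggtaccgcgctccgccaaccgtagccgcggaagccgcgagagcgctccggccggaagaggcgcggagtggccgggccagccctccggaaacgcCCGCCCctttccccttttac
Bcl2l11, chr2:128125788-128126037, plus strand: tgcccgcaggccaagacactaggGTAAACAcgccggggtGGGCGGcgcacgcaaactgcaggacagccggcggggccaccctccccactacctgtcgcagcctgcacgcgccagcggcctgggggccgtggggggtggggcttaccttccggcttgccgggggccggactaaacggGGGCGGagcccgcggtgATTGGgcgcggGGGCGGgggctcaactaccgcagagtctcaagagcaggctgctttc
Bcl2, chr1:106714291-106714540, minus strand: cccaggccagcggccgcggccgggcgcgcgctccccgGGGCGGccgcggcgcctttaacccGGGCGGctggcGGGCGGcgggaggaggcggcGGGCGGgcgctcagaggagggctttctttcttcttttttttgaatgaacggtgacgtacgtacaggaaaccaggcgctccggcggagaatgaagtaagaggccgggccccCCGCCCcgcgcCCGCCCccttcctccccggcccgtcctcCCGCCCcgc

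The Bcl2 window held 7 GC boxes and 0 matches to the other motifs. The Mcl1 window held 1 GC box, 15 to 20 bases before the start. The Bcl2l11 window held 3 GC boxes, 1 CCAAT box on the opposite strand and a forkhead core 221 to 227 bases before the start. The other start of Bcl2l11, not printed, held 0 forkhead cores, and the second start of Bbc3 held 1. Forkhead factors of the FOXO class are known activators of Bcl2l11. Over all 32851 promoter windows of this length, 3.17% held the forkhead core, 32.7% a GC box, 33.8% a CCAAT box, 6.02% an E-box, 1.55% the cAMP response element and 12.4% the TATA box. GC content was 64.4% for Mcl1, 72% for Bcl2l11 and 74.8% for Bcl2, against a median of 52.4%. A match is a description of these letters and no measure of binding.

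RNA was hybridised to 1 Affymetrix mouse array of the 430 series per clone, and the deposited MAS5 signals have a trimmed mean of 500 on every array. All 9 plasma cell markers (such as Sdc1, Xbp1 and Irf4) lay above the highest bacterial spike-in signal on every array. That spike-in signal, taken as a level of background, was 41.9 in the control clone of pair 1 and 27.2 to 27.5 on the other arrays. For T cells 1 of 4 markers, for myeloid cells 1 of 4 and for fibroblasts and endothelium 2 of 4 did so, with summed signals of 74.8 to 139, 305 to 434 and 522 to 620 against 135657 to 175195 for the plasma cell markers. The markers above it were Cd8a for T cells (33.6 to 85.2) and Csf1r for myeloid cells (213 to 293). For fibroblasts and endothelium they were Col1a2 (84.7 to 131) and Pecam1 (337 to 495). Cd3d and Cd4 for T cells, Lyz2 for myeloid cells and Col1a1 for fibroblasts were among the markers that did not lie above it. Mature B cell markers were above it for 2 of 4 matched genes, with summed signals of 2728 to 3766. These marker sums overlapped between AID-silenced and control clones for the plasma cell, B cell and fibroblast and endothelial lists. The myeloid list summed to 305 and 341 in the controls against 347 and 434 in the AID-silenced clones, and the T cell list to 139 and 136 against 74.8 and 113. Their part in the results was not tested. In bulk RNA, fewer cells of a type and less RNA per cell cannot be told apart.

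The first comparison asked whether the family differed between AID-silenced and control clones. Pmaip1, which encodes NOXA, was lower in both AID-silenced clones by a similar amount in each pair. Mcl1, the survival protein that NOXA neutralises, and Bcl2l11, which encodes the strong killer BIM, had higher signals in the AID-silenced clone of pair 1, with small differences in pair 2. Bcl2, Bak1, Bbc3 and Bid showed no separation of the groups. No member passed the test across all probe sets. In limma on log2(signal + 16), 0 of 28 tested member probe sets had an adjusted p under 0.05, against 0.00888% of all 22519 probe sets tested (2 probe sets). An unadjusted p under 0.05 was reached by 2 of 28, 1 each for Pmaip1 and Bcl2l11, against 3.49% of all. With the pair as a block the calls were again 0 of 28, against 0.0355% (8 probe sets), and an unadjusted p under 0.05 was reached by 6 of 28 against 7.63% of all. Those 6 were 4 probe sets of Mcl1 and 1 each of Bcl2l11 and Pmaip1.

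With 2 clones a group, the precision was low. The 95% interval of a member's difference reached from 0.48 to 1.59 log2 units to either side of it and had a median reach of 0.73. An exact permutation test of 2 clones against 2 cannot give a two-sided p below 0.333. Of the 28 tested probe sets, 14 were higher in both AID-silenced clones than in the paired control (background 27.8% of all probe sets), 3 were lower in both (26%) and 11 went in opposite directions (46.2%). Both AID-silenced arrays lay above both control arrays for 8 of 28 (background 15.5%) and below both for 2 of 28 (14%). Probe sets of a gene read the same transcript and are not independent, and 4 of these 8 belonged to Mcl1 and 2 to Bcl2l11. The 2 that lay below were those of Pmaip1 and 1 of Bcl2l1. A 2-fold difference of the same sign in each pair was seen at none of the members (0 of 28, background 0.87%). The median difference was 0.17 over the 28 member probe sets and 0.01 over all probe sets tested, on the log2(signal + 16) scale. Mcl1 with 6 probe sets and Bcl2l11 with 5, all with positive mean differences, weigh heavily in this median. By the brightest probe set of each gene, Bcl2, Bcl2l1, Mcl1 and Bcl2l11 were positive, and Bak1, Pmaip1, Bbc3, Bid and Bad negative.

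**Figure D1:**
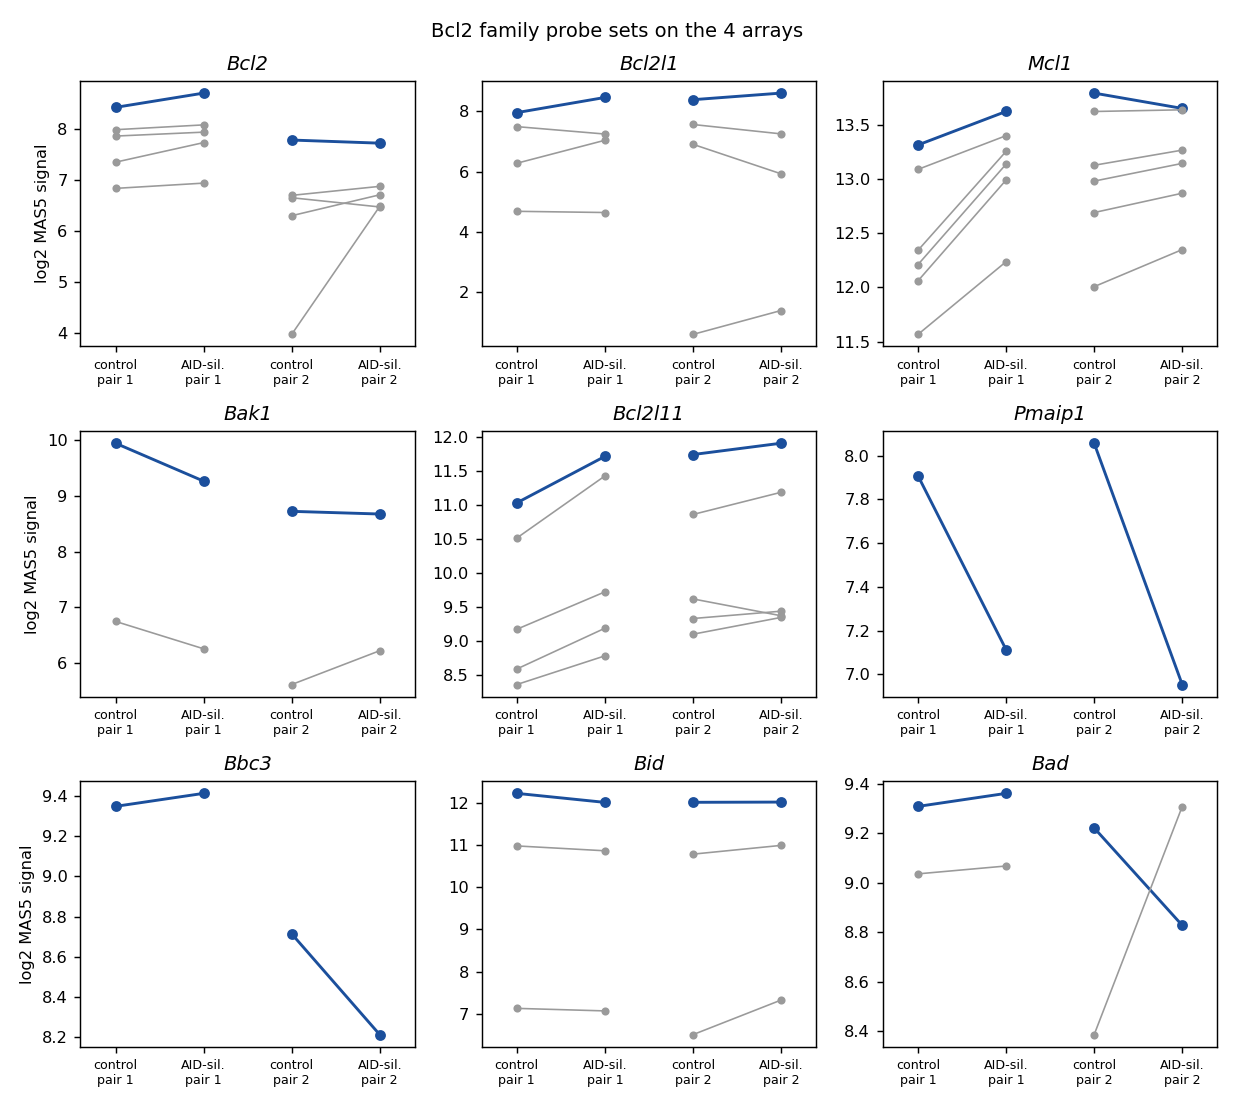
log2 MAS5 signal of each member probe set on the 4 arrays, 1 panel per gene with its own vertical range. Each line joins the control and AID-silenced clone of a pair, blue for the brightest probe set of the gene and grey for the others. The single Pmaip1 line runs down in both pairs, the Mcl1 lines run up most in pair 1, and the Bcl2 lines sit lower in pair 2 than in pair 1.

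Among the survival genes, Mcl1 was measured by 6 probe sets, all far above background, and these fell into 2 kinds. The probe set 1416880_at read 4273 and 6617 in the controls of pairs 1 and 2 (the order used throughout) against 8151 and 7490 in the AID-silenced clones. Both AID-silenced clones lay above both controls, and the control clone of pair 1 was the lowest. Its difference was 0.55 ± 0.26 log2 units (moderated SE, n = 2 per group; limma adjusted p = 0.9996), with 0.93 in pair 1 and 0.18 in pair 2. The probe sets 1437527_x_at, 1456243_x_at and 1456381_x_at also separated the groups, with differences of 0.53, 0.55 and 0.51. The suffix _x_at marks probe sets with probes that can match other transcripts. Across these 4 probe sets pair 1 gave 0.67 to 0.93 and pair 2 gave 0.14 to 0.34.

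The 2 brightest Mcl1 probe sets showed smaller differences. At 1416881_at the controls had 10203 and 14224, and the AID-silenced clones 12648 and 12894, a difference of 0.08 ± 0.22 (moderated SE, n = 2 per group; limma adjusted p = 0.9996). Here the AID-silenced clones lay between the controls. At 1448503_at the controls had 8726 and 12642, and the AID-silenced clones 10829 and 12780, a difference of 0.16. These 2 probe sets and 1416880_at are annotated to the same mRNA accession and still gave different values. The control clone of pair 1 was the lowest of the 4 clones at all 6 probe sets. Without it the Mcl1 differences were −0.16 and −0.10 at the 2 brightest and 0.13 to 0.29 at the other 4.

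Bcl2l1, which encodes BCL-XL, had 4 probe sets, 3 of them bright enough to be tested, and their directions differed. The brightest, 1420888_at, read 249 and 335 in the controls against 353 and 391 in the AID-silenced clones. The AID-silenced clones were both above the controls, by 0.34 ± 0.30 log2 units (moderated SE, n = 2 per group; limma adjusted p = 0.9996). At 1420887_a_at the order was turned, with 180 and 189 in the controls against 152 and 153 in the AID-silenced clones, a difference of −0.26 ± 0.30. The third, 1426191_a_at, gave 0.66 in pair 1 and −0.82 in pair 2. Bcl2l1 is spliced into a long, protective form and a short, death-promoting one, and which of these each probe set reads was not determined. The fourth, 1426050_at, had signals of 1.5 to 25.6, below the spike-in level on every array.

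Bcl2, the founding survival gene of the family, had within-pair differences of −0.16 to 0.35 log2 units at 4 of its 5 probe sets. The brightest, 1457687_at, read 345 and 221 in the controls against 419 and 212 in the AID-silenced clones, a difference of 0.11 ± 0.42 log2 units (moderated SE, n = 2 per group; limma adjusted p = 0.9996). The AID-silenced clones held both the highest and the lowest value. The dimmest probe set, 1440770_at, read 115 and 15.7 in the controls against 123 and 89.7 in the AID-silenced clones, and its 0.91 ± 0.66 came from pair 2 (1.74, against 0.09 in pair 1). The 15.7 lies below the spike-in level of that array, so the size of this difference depends on the pseudocount of 16. The remaining 3 probe sets gave −0.03, 0.11 and 0.35.

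Bak1 was the effector that could be read. The brighter probe set, 1418991_at, read 986 and 422 in the controls against 615 and 409 in the AID-silenced clones. The control clone of pair 1 was the highest, and the other 3 lay within 409 to 615. The difference was −0.36 ± 0.44 log2 units (moderated SE, n = 2 per group; limma adjusted p = 0.9996), and 0.24 without the control clone of pair 1. The dimmer probe set, 1425716_s_at, gave −0.42 in pair 1 and 0.48 in pair 2.

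Among the BH3-only genes, Pmaip1 separated the groups most evenly. NOXA binds MCL1 and promotes its destruction, and its transcript is induced by p53 and by stress of the endoplasmic reticulum. Its single probe set, 1418203_at, had signals of 240 and 266 in the controls against 138 and 124 in the AID-silenced clones. Both AID-silenced clones lay below both controls, and the 2 clones of each group were close to each other. The difference was −0.73 in pair 1 and −1.01 in pair 2, a mean of −0.87 ± 0.30 log2 units (moderated SE, n = 2 per group), or 1.83-fold lower. The 95% interval was −1.60 to −0.14, with an unadjusted limma p of 0.0256 and an adjusted p of 0.9996 over all probe sets. Leaving out any 1 clone gave −0.94 to −0.80. With no further probe set for Pmaip1, the value rests on this probe set alone.

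Bcl2l11, whose product BIM binds all the survival proteins, was measured by 5 probe sets, 4 of which were higher in the AID-silenced clone of both pairs. At 1435448_at the controls had 1466 and 1864, and the AID-silenced clones 2759 and 2337, with both AID-silenced clones above both controls. The difference was 0.61 ± 0.24 log2 units (moderated SE, n = 2 per group), with 0.91 in pair 1 and 0.32 in pair 2. The unadjusted limma p was 0.0374 and the adjusted p 0.9996. The neighbouring probe set 1435449_at, annotated to the same accession, also separated the groups, with 579 and 646 against 848 and 696, a difference of 0.32.

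At the brightest Bcl2l11 probe set, 1456005_a_at, the controls had 2098 and 3432, and the AID-silenced clones 3368 and 3852. The AID-silenced clone of pair 1 lay just below the control clone of pair 2, and the difference was 0.42 ± 0.28 (moderated SE, n = 2 per group; limma adjusted p = 0.9996). At 1456006_at it was 0.32, and at 1426334_a_at 0.58 in pair 1 and −0.24 in pair 2. As for Mcl1, the control clone of pair 1 was the lowest of the 4 clones at all 5 Bcl2l11 probe sets. Without it the 5 differences ran from −0.33 to 0.44, and 1456005_a_at gave 0.07.

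Bbc3, which encodes the p53 target PUMA, read 652 and 420 in the controls against 682 and 296 in the AID-silenced clones. The clones of pair 1 were both above those of pair 2, and the AID-silenced minus control difference was 0.06 in pair 1 and −0.48 in pair 2. Bid, which links death receptors to mitochondria once caspase 8 has cut it, read 4809 and 4150 in the controls against 4146 and 4166 in the AID-silenced clones at its brightest probe set. These signals lay within 4146 to 4809, and the difference of −0.10 ± 0.20 log2 units (moderated SE, n = 2 per group; limma adjusted p = 0.9996) had a 95% interval of −0.59 to 0.38. The other Bid probe sets gave 0.05 and 0.34, and all 3 went in opposite directions in the 2 pairs.

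Bad, which is held inactive by phosphorylation when growth factor signalling is on, had probe sets that did not agree. At 1416582_a_at the controls had 634 and 597, and the AID-silenced clones 658 and 455, a difference of −0.17. At 1416583_at they had 525 and 335 against 537 and 634, a difference of 0.46, nearly all of it in pair 2 (0.89, against 0.03 in pair 1).

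**Figure D2:**
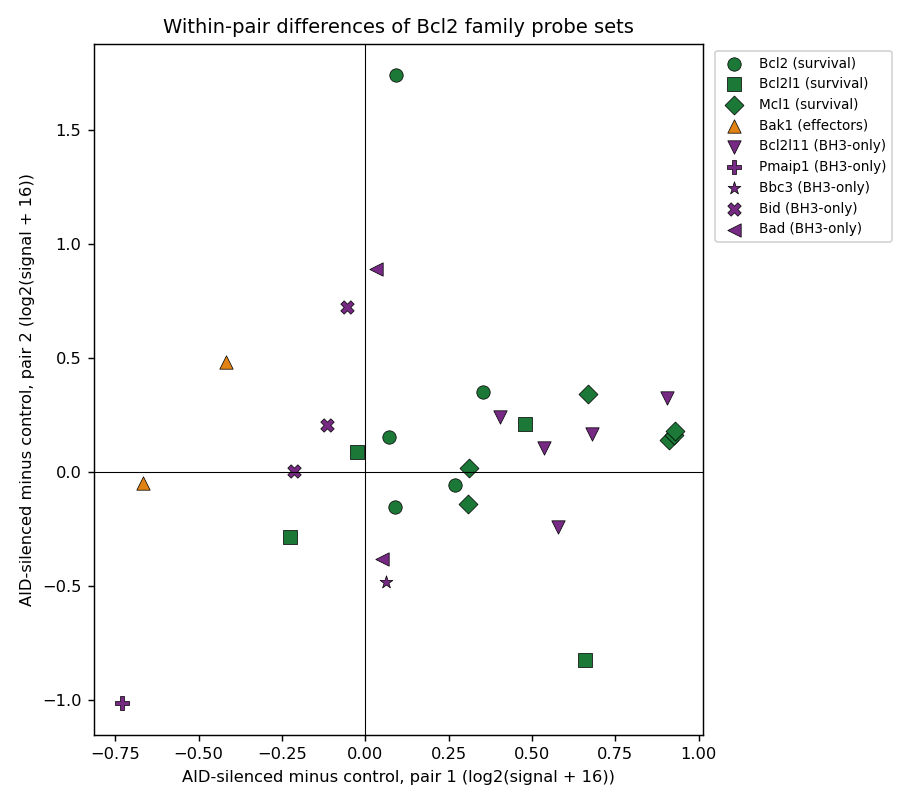
AID-silenced minus control in pair 1 (horizontal) and in pair 2 (vertical), on the log2(signal + 16) scale, 1 point per member probe set, coloured by role. Pmaip1 lies furthest to the lower left (−0.73 and −1.01), and the Mcl1 and Bcl2l11 points lie to the right with 0.31 to 0.93 in pair 1 and −0.24 to 0.34 in pair 2.

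The second comparison set the clones of pair 2 against those of pair 1, to show how the family varied among clones that had the same vector. All 5 Bcl2 probe sets had lower signals in both clones of pair 2, with differences of −1.33 to −0.77 log2 units, or 2.52-fold to 1.7-fold. Bbc3 and the brighter Bak1 probe set were lower there by 0.89 and 0.88. In limma with terms for group and pair, 0 of 28 tested member probe sets passed an adjusted p of 0.05, against 0.0178% of all (4 probe sets), and the lowest adjusted p of a member was 0.148, for Bcl2. An unadjusted p under 0.05 was reached by 9 of 28 against 15.8% of all, and 5 of the 9 were the Bcl2 probe sets, the others 1 each of Mcl1, Bak1, Bcl2l11 and Bbc3.

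At the Bcl2 probe set 1437122_at the clones of pair 1 had 255 (control) and 272 (AID-silenced), and those of pair 2 had 101 and 89. The 2 pairs were well apart and the clones within each pair close together. The pair 2 minus pair 1 difference was −1.33 ± 0.29 log2 units (moderated SE, n = 2 per pair). Its unadjusted limma p was 0.00282 and its adjusted p 0.148. At 1422938_at the clones of pair 1 had 234 and 246 and those of pair 2 had 104 and 118, a difference of −1.01 ± 0.29 (limma adjusted p = 0.193). The 1443837_x_at probe set gave −0.92 and 1457687_at −0.77. At 1437122_at the lower level of pair 2 was seen among controls (−1.21) and among AID-silenced clones (−1.46) alike. The dimmest Bcl2 probe set, 1440770_at, was less even. Its −1.22 came from −2.04 between the controls, of which that of pair 2 read 15.7, and −0.40 between the AID-silenced clones. At Mcl1 the pair difference was also larger between the controls than between the AID-silenced clones. At 1416880_at pair 2 minus pair 1 was 0.63 between the controls and −0.12 between the AID-silenced clones, and at 1437527_x_at it was 0.78 and 0.01. The brightest Bcl2l11 probe set gave 0.71 between the controls and 0.19 between the AID-silenced clones.

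Both clones of pair 2 lay below both of pair 1 for 9 of 28 tested member probe sets (background 26.2%) and above for 5 of 28 (20.7%). The 9 were the 5 of Bcl2, both of Bak1, that of Bbc3 and 1 of Bad, and the 5 above were 2 of Mcl1 and 3 of Bcl2l11. For Bbc3 the difference was −0.89 ± 0.25 log2 units (moderated SE, n = 2 per pair; limma adjusted p = 0.193), and for Bak1 −0.88 ± 0.25 (adjusted p = 0.196). Pmaip1 showed 0.00 here, with a 95% interval of −0.68 to 0.67, and Bid between −0.16 and −0.03. The 3′ to 5′ signal ratio of the beta-actin control probe sets, a measure of RNA length, also moved with the pair. It was 1.27 on both arrays of pair 1, and 1.12 and 1.04 on those of pair 2. The ratio for Gapdh lay within 0.776 to 0.807 on all arrays. The part of RNA length in the pair differences was not tested.

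**Figure D3:**
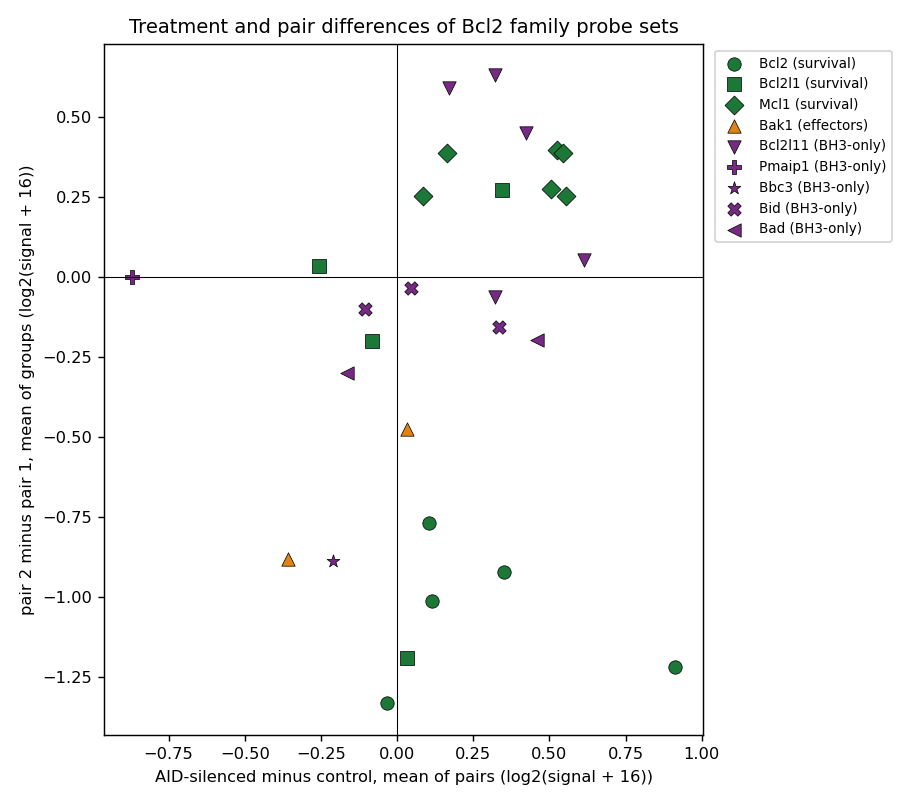
AID-silenced minus control, averaged over the pairs (horizontal), against pair 2 minus pair 1, averaged over the groups (vertical), on the log2(signal + 16) scale, 1 point per member probe set. Bcl2 lies far down (−1.33 to −0.77) near the middle of the horizontal axis apart from 1 point at 0.91, whereas Pmaip1 lies far left (−0.87) at 0.00.

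The third comparison took the genes around the family, in 8 lists with 63 genes. Of these, 54 were matched to a probe set and 51 were bright enough at their brightest probe set to be tested. In the comparison of AID-silenced with control clones, 0 of their 110 tested probe sets passed limma at an adjusted p of 0.05, against 0.00888% of all probe sets tested, and 2 of 110 had an unadjusted p under 0.05, against 3.49% of all. With the pair as a block 0 of 110 passed as well, against 0.0355% of all. The 51 genes were higher in both pairs for 15, lower in both for 10 and opposite for 26. Over all probe sets tested the shares were 27.8%, 26% and 46.2%, which are also the background for the counts of each list below. Values are those of a gene's brightest probe set unless another is named. Each tested gene named from here on had a limma adjusted p of 0.9996 there.

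Among the 4 tested death receptors and adaptors, 2 were higher in both pairs, 1 was lower and 1 opposite. Tnfrsf1a, the main receptor for TNF, read 514 and 352 in the controls against 870 and 654 in the AID-silenced clones. Both AID-silenced clones lay above both controls, by 0.74 in pair 1 and 0.87 in pair 2, a mean of 0.80 ± 0.31 log2 units (moderated SE, n = 2 per group). Its unadjusted limma p was 0.0391. The adaptors that follow it showed less, with Fadd at 0.11 and Tradd at −0.18. Fas, the receptor for Fas ligand, was too dim to be tested, with signals of 1.8 to 36.8.

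Of the 6 caspase and nuclease genes tested, 3 were higher in both pairs, 2 lower and 1 opposite. Casp8, the caspase that death receptors activate and that cuts BID, read 3128 and 2496 in the controls against 3928 and 3390 in the AID-silenced clones, a difference of 0.38 ± 0.22 log2 units (moderated SE, n = 2 per group). The AID-silenced clones were both above the controls. Casp9, activated on the apoptosome, was at 0.35 at its brightest probe set, and at −0.38 and 0.14 at the others. Dffb, the nuclease that cuts DNA in dying cells, was at −0.30.

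Of the 9 mitochondrial death genes tested, 1 was higher in both pairs, 3 were lower and 5 opposite. Apaf1, the scaffold of the apoptosome, was at −0.11 (−0.58 at its dimmer probe set), Endog, a mitochondrial nuclease, at −0.33, and Vdac3, a channel of the outer membrane, at 0.32. Among the 6 inhibitors of apoptosis, 3 were higher in both pairs, none was lower and 3 were opposite. Xiap, which blocks caspases directly, was at 0.28, Birc5 at 0.20 and Birc2 at 0.11. Of the dimmer Xiap probe sets, 1450232_at gave −0.53 in pair 1 and 0.59 in pair 2.

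Of the 12 other effector-like and BH3-only relatives tested, 3 were higher in both pairs, 1 was lower and 8 were opposite. Bcl2l12 read 256 and 210 in the controls against 349 and 280 in the AID-silenced clones, a difference of 0.41 ± 0.31 log2 units (moderated SE, n = 2 per group). Bnip3, a BH3-like mitophagy receptor, was at −0.10 in pair 1 and −1.05 in pair 2. Bcl2l14 differed far more between the pairs than between the groups, with 148 (control) and 154 (AID-silenced) in pair 1 and 4.7 and 23.6, below the spike-in level, in pair 2. Of the other survival relatives only Bcl2l2 was tested, at 0.45 in pair 1 and 0.00 in pair 2.

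Among the 8 tested regulators upstream of the family, 1 was higher in both pairs, 2 were lower and 5 opposite. Ddit3, the stress factor CHOP, read 2614 and 761 in the controls against 1746 and 524 in the AID-silenced clones. The AID-silenced clone was the lower in each pair, by 0.58 in pair 1 and 0.53 in pair 2 on the log2 scale, but the pairs lay further apart than the groups, with a pair difference of −1.73. Its dimmer probe set gave −0.08 in pair 1 and 0.01 in pair 2. Foxo3, a forkhead factor of the class known to activate Bcl2l11, had 2281 and 2897 against 2278 and 2335, a difference of −0.16. Fbxw7, part of a ubiquitin ligase for MCL1, was at 0.29, and its dimmer probe set gave −0.33 in pair 1 and 0.26 in pair 2.

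Of the 5 plasma cell survival receptors tested, 2 were higher in both pairs, 1 was lower and 2 opposite. Il6st, the signalling chain shared by interleukin 6 family receptors, was higher in both pairs at all 4 of its probe sets. The brightest, 1452843_at, read 830 and 338 in the controls against 1153 and 484 in the AID-silenced clones. The groups overlapped, and the difference of 0.48 was smaller than that between the pairs, −1.24. The other 3 probe sets gave 1.36, 0.49 and 0.30. The 1.36 was that of 1437303_at, where the controls had 589 and 144, and the AID-silenced clones 1004 and 608. Without the control clone of pair 1 this probe set was at 2.32, with a limma adjusted p of 0.0437. That fit rests on the single control at 144 and called 146 probe sets over the whole array, against 2 with all 4 clones. Il6ra, the ligand-binding chain, had 263 and 243 against 139 and 205, a difference of −0.54, but its other probe set gave 0.04. Tnfrsf13c, the BAFF receptor, was at 0.05 in pair 1 and 0.82 in pair 2.

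**Figure D4:**
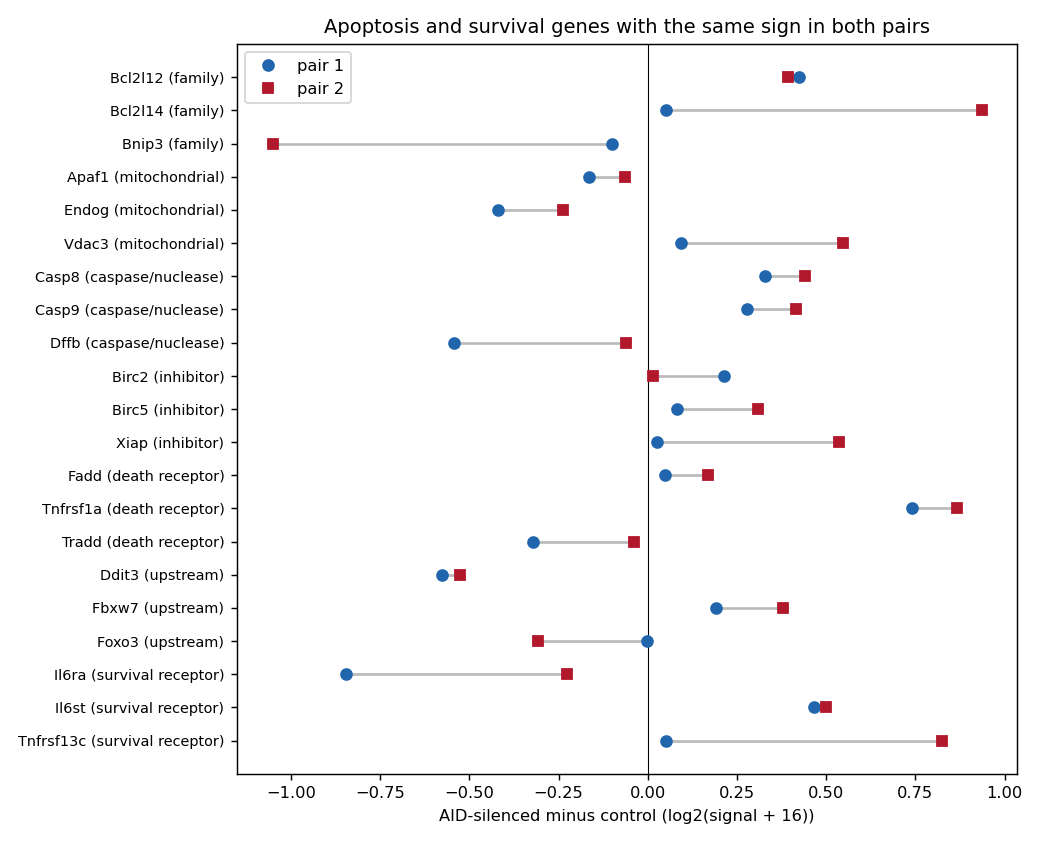
AID-silenced minus control in pair 1 (circles) and pair 2 (squares), on the log2(signal + 16) scale, for 21 genes of the lists, at most 3 per list, with the same sign in both pairs. Tnfrsf1a has both points far to the right (0.74 and 0.87), and the pair 2 point of Bcl2l14 compares signals below the spike-in level. Bnip3 and Il6ra are the furthest left, each in 1 pair only (−1.05 and −0.85).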

How the data were processed

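Per the submitters' processing notes the authors used MAS5, which gives each probe set 1 linear intensity. On each array the mean signal, with 2% trimmed at either end, was 500, so no further normalisation was applied, and log2(signal + 16) was used. This pseudocount shrinks the fold changes of dim genes. No value column was left unused (0). Probe sets were named from the platform annotation, 34945 with 1 symbol, 932 with several and 9160 not listed. Those with several symbols were matched to no member or list gene. Of 45101 probe sets, 64 Affymetrix controls were left out, and 22519 in the upper 0.5 by mean log2 value (mean signal about 49.4) were tested in R 4.3.3 with limma 3.58.1 and statmod 1.5.0. The fit took all 4 arrays, its eBayes prior was trended and robust, and p-values were adjusted over all tested probe sets by Benjamini-Hochberg with a threshold of 0.05. The step was tested on simulated data.

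Nothing says that the clones of a group stem from separate transfections, so p-values measure only the spread between these 4 samples, which may be partly technical. The pair number entered the treatment fit only as a block in an alternative. The members and lists were chosen with earlier results of these data known. Named were all members and, of each list, up to 3 tested genes of like sign in the pairs, by the largest mean difference at the brightest probe set. Chosen after seeing values were Bcl2l2, Fas and the second Il6st probe set. The level of the silenced gene is not reported here. Figures were drawn with matplotlib 3.10.9.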

Additional observations from a re-analysis of the deposited data

How the results depend on the processing

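The count of member probe sets past the threshold was 0 of 28 in the main analysis, and stayed at 0 under median scaling, quantile normalisation, a pseudocount of 1 or 64, no filter, the stricter filter (upper 0.25), the pair as replicate block, eBayes without trend and robust prior, and each left-out clone. The same held for the pair comparison, also without the group term, and left-out clones were not run there because no residual degrees of freedom remain with both terms. The labels number the pairs without saying what a pair shares. The pair 2 minus pair 1 differences of the control and the AID-silenced clones correlated across probe sets (r = 0.306, rho = 0.336), and the block raised the calls over all probe sets from 2 to 8 and changed no member call. The count over all probe sets was 0 without trend and robust prior and ran from 0 to 146 over the left-out clones (146 without the control clone of pair 1). The count for the apoptosis lists ran from 0 to 1, the 1 being Il6st without the control clone of pair 1. With a clone left out, the lone clone of its group is assumed to vary like the other group.

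Over the refitted alternatives, 97 of 105 member gene values at the brightest probe set kept their direction and side of the threshold, and 8 changed sign. The replicate block, both filter settings and eBayes without trend and robust prior leave the difference itself unchanged. No sign could change under these settings, so the 97 is no measure of stability. All 8 sign changes came from left-out clones. The mean of all probe sets, which has no test, changed sign for 2 of 9 genes. Over left-out clones Mcl1 ran from −0.155 to 0.323, Bid from −0.21 to 0.002, Bad from −0.424 to 0.094, Bak1 from −0.953 to 0.24, Bbc3 from −0.79 to 0.372 and Bcl2 from −0.36 to 0.572. The values that changed sign were −0.155 for Mcl1, 0.002 for Bid, 0.24 for Bak1 and 0.1 for Bbc3 without the control clone of pair 1, −0.197 for Bcl2 without that of pair 2, −0.36 for Bcl2 without the AID-silenced clone of pair 1, and 0.094 for Bad and 0.372 for Bbc3 without that of pair 2. The mean of all probe sets gave 0.092 for Bid and 0.148 for Bad. The cause was not tested beyond the construction of each alternative. Pmaip1 stayed between −0.945 and −0.701 in every alternative that gave a value for it. Its probe set was too dim for the stricter filter and has no value there, as were the brightest probe sets of Bcl2 and Bcl2l1. Bcl2l11 stayed between 0.069 and 0.775 at its brightest probe set and in the mean of its probe sets. Its dimmer probe sets 1426334_a_at and 1456006_at changed sign without the control clone of pair 1, to −0.331 and −0.034. The signals of the dimmest probe sets, 1426050_at for Bcl2l1 among them, do not stand clear of background and limit what can be read from them.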
